A study of Mus musculus with 12 samples.

Results

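The change with time alone, in the absence of any chemical, was examined in TM3 cells, a mouse Leydig cell line derived from the immature BALB/c testis. Gene expression at 8 h was compared with that at 3 h in cells that received culture medium alone, using the control channel of the 2-colour arrays. Of the 12 arrays of the study, 8 carried these samples, 4 at 3 h and 4 at 8 h, and the control channels of the other 4 arrays were from 24 h. On every array, RNA of untreated cells was hybridised together with RNA of cells given 1 mM or 5 mM methoxyacetic acid (MAA), the testis-toxic metabolite of ethylene glycol monomethyl ether, for the same time. Each RNA was a pool of 3 cultures. The control RNA was labelled with Alexa 647 in replicate 1 and with Alexa 555 in replicate 2. The labels do not state whether the arrays of 1 mM and 5 mM MAA of a time and replicate shared their control pool, so these arrays were averaged, which left 2 samples at each time. The methods describe 2 separate pools for the MAA-treated cultures and do not say the same of the untreated ones. Whether the 2 replicates had separate control pools is therefore not known. The cells were of 1 line, and no allele or transgene is given for them.

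Leydig cells lie between the tubules of the testis and make testosterone from cholesterol under the control of luteinizing hormone. Cultured lines in serum respond to growth factors through the Ras-ERK kinase cascade, which switches on immediate early genes such as Egr1 within minutes and is then restrained by inhibitors that it induces itself, among them the Sprouty proteins and dual specificity phosphatases. Cells that divide pass through a G1 phase, in which ribosome synthesis is high, to an S phase, in which genes driven by E2F factors supply the replication machinery.

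TM3 cells carried only some Leydig cell markers. Star, the steroidogenic cholesterol transporter, Cyp17a1 and Insl3 were well above background on all 8 arrays, while Cyp11a1, Hsd3b1, Hsd3b6 and the luteinizing hormone receptor Lhcgr were not so on any of them. Summed over its 8 markers, the germ cell list ran from 1694 to 1943 signal units at 3 h and from 668 to 1084 at 8 h, mostly through Ddx4, while Dazl and Stra8 were below background throughout. The 4 smooth muscle markers summed to 19470 to 21360 at 3 h and 24070 to 27120 at 8 h. Acta2 was by far the brightest of them. Its brightest probe gave a log2 difference of -0.08, so the rise of the sum came from other probes. The 8 Sertoli cell markers summed to 7307 to 8226 at 3 h and 8768 to 9442 at 8 h. Most of that sum was Wt1, which gave 0.24, while Rhox5 of the same list gave -0.24. Of the macrophage list, Ptprc and Adgre1 were below background on all 8 arrays, and its measured members summed to 782.5 to 878.5 at 3 h and 1104 to 1295 at 8 h. The 4 endothelial markers summed to 16.3 to 49.7 and 29.2 to 37.5, with Pecam1, Cdh5 and Kdr below background throughout. The part of such markers in the differences below was not tested, and a change in the share of a cell type cannot be told apart from a change in RNA per cell. Between 61.5% and 68.9% of probes were well above background in each control channel. All Alexa 647 arrays of 3 h were on slide 1 and those of 8 h on slide 2, so that slide and time cannot be told apart in that dye. On slide 3, 1 control channel of 3 h and 2 of 8 h shared both slide and dye. The channel of 3 h was from an array with 5 mM MAA, and those of 8 h were from arrays with 1 mM and 5 mM. Their differences are given as the values within 1 slide, but these channels are among the arrays from which the calls and medians were made and are no independent check.

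Of 26493 probes tested, 1269 passed the thresholds of a call, p under 0.005 and a difference of more than 2-fold, which was 4.79%. Of these, 936 probes (3.53%) were higher and 333 (1.26%) were lower at 8 h. Counted with 1 probe per gene, a called one wherever there was any, 515 of 11275 named genes (4.57%) were higher and 161 (1.43%) were lower. All 1269 called probes had an adjusted p under 0.05 by limma, the highest being 0.0212, and so did 10275 probes in all, 4835 of them higher and 5440 lower. Counts at an adjusted p, those of the lists below included, rest on the 24 h samples in the fit. With the samples of 3 h and 8 h fitted alone, 0 probes had an adjusted p under 0.05. With channels centred on their medians in place of quantile normalisation, the median difference of all probes moved from -0.03 to -0.26 and the calls became 834 higher and 685 lower, so that the share of higher calls went from 73.8% to 54.9%. On slide 3, all 936 higher probes and 331 of the 333 lower ones differed in the same direction, and 80.2% and 92.8% of them by more than 2-fold, which follows in part from the use of the same channels in the calls. The probes called higher were dim at 3 h, with a median level of 6.07 on the log2 scale against 9.73 for all tested probes, and 147 of them were not well above background on any array of 3 h.

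**Figure D1:**
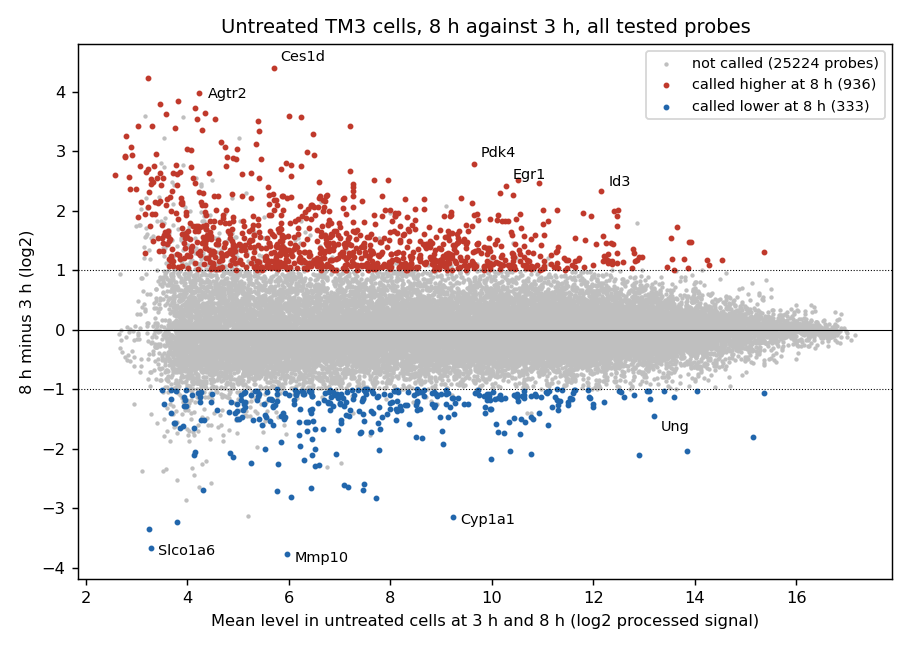
Difference between 8 h and 3 h in untreated TM3 cells (log2, vertical axis) against the mean level (log2 processed signal, horizontal axis) for each of the 26493 tested probes. The 936 probes called higher (red) had a median level of 6.07 at 3 h and the 333 called lower (blue) one of 8.07, and dotted lines mark a 2-fold difference.

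Genes of the ERK pathway and its feedback did not move together. Egr1, a zinc finger factor and immediate early gene, rose 5.32-fold (log2 2.41 ± 0.07 SE, 2 samples per time, adjusted p = 0.00665). Its log2 level was 8.95, 9.05, 9.10 and 9.17 at 3 h and 11.51, 11.52, 11.49 and 11.40 at 8 h, in the order Alexa 647 with 1 mM and 5 mM on the same array, then Alexa 555 with 1 mM and 5 mM, an order kept for all values by array below. The 4 arrays of 8 h lay well above the 4 of 3 h, and the slide 3 difference was 2.27. Groups of arrays that do not overlap are common here, since 54.3% of all tested probes had none. Of 12 ERK feedback genes tested, 3 were called higher and none lower, against 4.57% and 1.43% of all genes, the shares that apply to every list below. Dusp6, a phosphatase that inactivates ERK, measured 10.15, 10.28, 10.17 and 10.19 at 3 h and 12.11, 12.11, 11.90 and 11.95 at 8 h, which was a rise of 3.53-fold (log2 1.82 ± 0.06). Spry4, a Sprouty inhibitor of receptor tyrosine kinase signalling, measured 6.90, 6.88, 7.43 and 7.48 at 3 h and 8.98, 8.97, 9.25 and 9.31 at 8 h. Both dyes gave a rise, and the levels at 8 h exceeded every level at 3 h. Spry1, of the same family, rose by 1.06 ± 0.05 log2 units, which was 0.83 with channels centred on their medians and then under 2-fold. Dusp1 gave 0.27, Spred2 -0.37 and Spred3 -0.58, none of them called, and the median of the 12 genes was 0.24 against -0.02 for all genes tested.

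Fosl1 and Etv5, transcription factor genes that are also known to respond to ERK, fell while Egr1, Dusp6 and Spry4 rose. Fosl1, which encodes the AP-1 subunit Fra-1, measured 10.92, 10.93, 10.80 and 10.83 at 3 h and 9.42, 9.30, 9.32 and 9.11 at 8 h, which was a difference of -1.58 ± 0.04 log2 units. Etv5, an ETS factor, measured 6.90, 6.92, 6.92 and 6.96 at 3 h and 5.10, 4.51, 4.67 and 4.41 at 8 h (log2 -2.25 ± 0.10, both of its probes called). Etv4, its close relative, was looked up after these values were seen and differed by -1.80 log2 units. The groups of 3 h and 8 h did not overlap for Fosl1 or Etv5.

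Of 37 serum-response and immediate early genes tested, 4 were called higher and 1, Fosl1, lower, against 4.57% and 1.43% of all genes, and the median was -0.07. Ccn1 and Ccn2, matricellular proteins that are targets of serum and of mechanical signals, rose by 1.17 ± 0.07 and 1.22 ± 0.07 log2 units. Ccn1 measured 10.08, 10.23, 10.05 and 10.09 at 3 h and 11.19, 11.36, 11.23 and 11.33 at 8 h, again with no overlap, but with channels centred on their medians it gave 0.95, under 2-fold. Areg, an EGF receptor ligand, was called with 1.30 ± 0.13, but its levels, 4.19, 4.93, 4.11 and 5.46 at 3 h and 5.43, 6.75, 5.28 and 6.44 at 8 h, overlapped. In each dye and at each time, Areg was higher on the array with 5 mM MAA than on that with 1 mM, and the reason was not tested. Areg lost its call with each of 5 of the 8 arrays left out, at 0.96 to 1.63 log2 units. It gave 0.40 on slide 3, where the channel of 3 h came from an array with 5 mM MAA. Fos and Fosb were not called, at -0.12 ± 0.06 (adjusted p = 0.218) and -0.31 ± 0.13 (adjusted p = 0.151). Jun gave 0.55 at an adjusted p of 0.00928, below 2-fold.

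The 3 inhibitor of differentiation genes Id1, Id2 and Id3, which encode helix-loop-helix proteins that block basic helix-loop-helix factors and are classical targets of BMP signalling, all rose. Id3 measured 10.96, 11.00, 11.03 and 10.98 at 3 h and 13.41, 13.29, 13.28 and 13.31 at 8 h, which is 5.02-fold (log2 2.33 ± 0.06). Id2 measured 11.40, 11.36, 11.56 and 11.59 at 3 h and 13.28, 13.29, 13.62 and 13.73 at 8 h (log2 2.00 ± 0.07). Id1 measured 13.13, 13.14, 13.25 and 13.29 at 3 h and 14.51, 14.65, 14.62 and 14.91 at 8 h (log2 1.47 ± 0.06). The 3 genes had an adjusted p of 0.00665 each, and none of their groups overlapped. They were the only members called among 21 TGF-beta and BMP response genes tested. Smad6, an inhibitory Smad and BMP target, gave 0.71 and Tgfb1 -0.57, and the median of the list was 0.20.

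Of the matrix metalloproteinase genes, Mmp10, Mmp3, Mmp13 and Mmp1a fell. Matrix metalloproteinases (MMPs) are secreted or membrane-bound enzymes that cut extracellular matrix, and a run of their genes lies side by side on chromosome 9. Mmp10, stromelysin 2, measured 8.06, 8.07, 7.62 and 7.70 at 3 h and 4.25, 3.60, 4.38 and 4.11 at 8 h, which was a 13.7-fold fall (log2 -3.78 ± 0.22, adjusted p = 0.00705). Mmp3, stromelysin 1, measured 10.02, 10.02, 9.98 and 9.95 at 3 h and 8.16, 8.13, 8.02 and 8.00 at 8 h (3.78-fold lower, log2 -1.92 ± 0.05). Mmp13, collagenase 3, measured 9.46, 9.43, 9.56 and 9.60 at 3 h and 8.22, 8.27, 8.39 and 8.08 at 8 h (log2 -1.27 ± 0.06). For these 3 genes every array of 8 h was below every array of 3 h. Mmp1a, an interstitial collagenase, measured 5.17, 5.08, 4.72 and 4.73 at 3 h and was not well above background on any array of 8 h, so that it was at least 2.93-fold lower. The call of Mmp1a was lost without the Alexa 555 array of 8 h with 5 mM MAA.

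Of the 10 MMP genes of chromosome 9, 5 were tested, the others not being well above background on enough arrays or not named on the array. Of these, 4 were called lower, and Mmp8 gave -1.60 ± 0.29 log2 units (adjusted p = 0.0284) without passing the thresholds of a call. Of 9 MMP genes tested on other chromosomes, 6 were higher at an adjusted p under 0.05 and none lower. Of all genes, 22.3% were higher and 20.8% lower at that threshold, shares that apply to such counts below unless another scaling is named. Mmp11, stromelysin 3, gave 0.44 ± 0.06 (adjusted p = 0.0171). Mmp14 and Mmp2, a membrane-type enzyme and the gelatinase that it activates, gave 0.58 ± 0.07 and 0.53 ± 0.06 log2 units. Mmp23 was called higher at 1.05 ± 0.07, and Mmp15, not well above background on any array of 3 h, was at least 1.54-fold higher. MMP genes outside the lists were counted after their values were seen.

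AP-1, the dimer of Fos and Jun family proteins to which Fosl1 contributes, binds the letters TGACTCA on either strand, read TGAGTCA on the other. The proximal promoters of the 4 MMP genes called lower are shown because each of them holds 1 such match, in capitals, in the 250 bases before and 50 after the transcription start. Sequences are those of RefSeq on GRCm38.p6, all on the plus strand. They lie at chr9:7502092-7502391 (Mmp10), chr9:7463891-7464190 (Mmp1a), chr9:7445572-7445871 (Mmp3) and chr9:7272264-7272563 (Mmp13).
Mmp10: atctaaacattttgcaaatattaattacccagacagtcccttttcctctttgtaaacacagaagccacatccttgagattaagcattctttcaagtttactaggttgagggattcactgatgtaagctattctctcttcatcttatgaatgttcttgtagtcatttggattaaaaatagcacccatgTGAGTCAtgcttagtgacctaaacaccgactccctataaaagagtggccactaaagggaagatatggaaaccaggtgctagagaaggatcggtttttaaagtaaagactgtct
Mmp1a: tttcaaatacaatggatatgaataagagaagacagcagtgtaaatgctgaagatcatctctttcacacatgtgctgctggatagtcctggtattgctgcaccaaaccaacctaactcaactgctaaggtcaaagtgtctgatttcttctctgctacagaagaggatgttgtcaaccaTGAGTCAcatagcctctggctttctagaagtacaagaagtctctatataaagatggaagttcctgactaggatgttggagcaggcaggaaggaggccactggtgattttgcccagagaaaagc
Mmp3: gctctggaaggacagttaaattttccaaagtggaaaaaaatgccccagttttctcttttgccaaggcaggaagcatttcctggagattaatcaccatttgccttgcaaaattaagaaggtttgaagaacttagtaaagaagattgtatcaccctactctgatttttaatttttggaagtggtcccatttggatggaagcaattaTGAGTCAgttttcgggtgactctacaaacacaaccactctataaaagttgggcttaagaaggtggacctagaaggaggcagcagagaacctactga
Mmp13: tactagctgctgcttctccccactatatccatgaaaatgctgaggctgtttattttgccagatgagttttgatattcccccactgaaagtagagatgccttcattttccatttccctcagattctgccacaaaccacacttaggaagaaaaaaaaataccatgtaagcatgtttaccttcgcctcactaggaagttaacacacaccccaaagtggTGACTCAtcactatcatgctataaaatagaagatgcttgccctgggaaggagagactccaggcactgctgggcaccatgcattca
The match began 63 bases before the start in Mmp10, 73 in Mmp1a, 46 in Mmp3 and 35 in Mmp13. It was present in 4 of 9 tested MMP genes that had a promoter sequence, in 12 of 123 genes called lower (9.76%, these 4 included), in 34 of 383 called higher (8.88%), in 4.95% of the 9019 tested genes with a promoter and in 5.20% of all 32851 promoter windows. A match describes the letters only.

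Among the 32 matrix genes and proteases tested, 4 were called higher beside the 3 listed MMP genes called lower, and the median was 0.17. Adamts1, a secreted protease of versican and aggrecan, measured 11.44, 11.40, 11.62 and 11.55 at 3 h and 13.49, 13.45, 13.34 and 13.40 at 8 h (log2 1.91 ± 0.08). Adamts5, of the same family, rose by 1.16 ± 0.08, Loxl1, a cross-linker of elastin, by 1.59 ± 0.11 and Thbs1, thrombospondin 1, by 1.18 ± 0.06. With channels centred on their medians, Adamts5 (0.76) and Thbs1 (0.81) were under 2-fold. Timp1, an inhibitor of MMPs, gave -0.84 at adjusted p = 0.009 without a call. The fibrillar collagens moved little, with 0.16 ± 0.05 for Col1a1 (adjusted p = 0.0767) and 0.29 ± 0.06 for Col1a2 (adjusted p = 0.0346).

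Ribosome biogenesis genes fell as a group. Of 30 tested, 6 were called lower and none higher, all 30 differences were negative, and 29 had an adjusted p under 0.05, against 20.8% of all genes with a lower level at that threshold. The median was -0.68 log2 units, and -0.69 on slide 3. Rrp12, a factor of 40S subunit export, measured 8.21, 8.33, 8.15 and 8.31 at 3 h and 6.71, 6.83, 6.66 and 6.68 at 8 h (log2 -1.53 ± 0.06). Heatr1, needed for rRNA transcription and early processing, measured 12.64, 12.67, 12.60 and 12.57 at 3 h and 11.48, 11.48, 11.29 and 11.26 at 8 h (log2 -1.25 ± 0.06). Both genes had an adjusted p of 0.00665, and their groups lay apart. The nucleolar helicase Ddx21 gave -1.15 ± 0.05, the nucleolar phosphoprotein Nolc1 -1.13 ± 0.04 and Rrp9, a protein of the U3 snoRNP, -1.09 ± 0.05. Ncl, nucleolin, was called on 1 of its 3 probes at -1.03, while its other probes, which were brighter, gave -0.32 and -0.26. The snoRNP proteins Nop56 and Nop58 gave -0.57 ± 0.05 and -0.61 ± 0.04, and Npm1, nucleophosmin, the exception to the adjusted p, gave -0.02. The number of members called depended on the scaling, with 16 called lower and a median of -1.001 when channels were centred on their medians.

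Genes of DNA replication and S phase were also lower at 8 h. All 39 tested members had a negative difference, 33 at an adjusted p under 0.05, against 20.8% of all genes. Of the 39, 6 were called lower and none higher. The median was -0.52, and -0.51 on slide 3. Ung, the uracil-DNA glycosylase, measured 13.96, 13.97, 13.82 and 13.91 at 3 h and 12.46, 12.55, 12.39 and 12.46 at 8 h (log2 -1.45 ± 0.05). E2f2, an activating E2F factor, measured 9.15, 9.18, 8.68 and 8.57 at 3 h and 7.46, 7.60, 7.50 and 7.61 at 8 h (log2 -1.35 ± 0.16). The cyclin E genes, whose products drive entry into S phase, fell as well, Ccne2 by 1.12 ± 0.04 and Ccne1 by 1.05 ± 0.07. Mcm10, a replication initiation factor, gave -1.03 ± 0.06. The subunits of the MCM helicase gave smaller differences, from -0.58 for Mcm5 to -0.22 for Mcm4 on the brightest probe of each. With the 4 samples of 3 h and 8 h fitted alone, E2f2 kept its value and lost its call. In that fit the median of the 39 genes was unchanged, 5 were called lower and 0 had an adjusted p under 0.05.

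E2F factors bind sites related to TTTGGCGC, TTTCGCGC and TTTCCCGC. Of the 34 S phase genes with a promoter sequence, 14 (41.2%) held at least 1 of these 3 forms on either strand. The share was 3.93% of tested genes, 4.07% of genes called lower and 1.84% of all promoter windows. Promoters of E2f2 and Dtl, which encodes a substrate receptor of a replication-coupled ubiquitin ligase and gave -0.94, are shown as members with a match. They lie at chr4:136172024-136172323 on the plus strand and chr1:191575495-191575794 on the minus strand of GRCm38.p6, and the capitals mark the match, which began 39 bases after the start in E2f2 and 8 bases before it in Dtl.
E2f2: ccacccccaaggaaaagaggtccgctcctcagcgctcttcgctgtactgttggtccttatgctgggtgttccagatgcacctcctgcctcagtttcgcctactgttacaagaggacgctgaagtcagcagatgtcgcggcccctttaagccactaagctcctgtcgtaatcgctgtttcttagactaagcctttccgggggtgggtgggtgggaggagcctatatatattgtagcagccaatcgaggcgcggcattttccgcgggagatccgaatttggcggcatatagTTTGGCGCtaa
Dtl: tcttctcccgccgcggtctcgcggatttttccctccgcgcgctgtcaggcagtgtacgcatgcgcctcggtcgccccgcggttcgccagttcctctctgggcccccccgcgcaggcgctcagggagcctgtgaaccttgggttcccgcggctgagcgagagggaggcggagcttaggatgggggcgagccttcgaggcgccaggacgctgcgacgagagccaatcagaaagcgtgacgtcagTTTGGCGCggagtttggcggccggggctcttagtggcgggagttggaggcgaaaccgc
The 6 called S phase genes were not all of this kind, E2f2 being the only one of them among the 14. The MYC-type E-box CACGTG was present in 7 of 25 ribosome biogenesis genes (28.0%), against 11.5% of tested genes and 7.15% of all windows. Of genes called lower, 7.32% held it, a smaller share than that of tested genes.

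The direction of mitosis genes depended on the scaling. None of 37 was called by limma, 11 were higher and 1 lower at an adjusted p under 0.05 (16 and 2 at an unadjusted p under 0.05), and the median was 0.05. At that adjusted p, 22.3% of all genes were higher and 20.8% lower. Ccna2, cyclin A2, measured 15.13, 15.13, 14.95 and 14.97 at 3 h and 15.05, 15.02, 15.06 and 15.08 at 8 h, and its groups overlapped (log2 0.01 ± 0.08, adjusted p = 0.943). Ccnb1, cyclin B1, gave -0.09 ± 0.06 (adjusted p = 0.297). With channels centred on their medians the median of the mitosis genes was -0.33, beside -0.26 for all probes, and none was higher and 20 were lower at an adjusted p under 0.05. Between 8 h and 24 h the median of the 37 genes was -1.12, with -1.08 for Ccna2 and -1.25 for Ccnb1. Of 16 G1 cyclins and inhibitors none was called by limma, and 5 were higher and 3 lower at an unadjusted p under 0.05. Ccnd1, cyclin D1, gave -0.92 ± 0.05 (adjusted p = 0.00665), just under 2-fold, and measured 12.59, 12.61, 12.41 and 12.43 at 3 h and 11.69, 11.61, 11.55 and 11.50 at 8 h. Ccnd2 measured 12.37 on both Alexa 647 arrays of 3 h but 10.90 and 10.88 on the Alexa 555 arrays, against 10.91 to 10.97 at 8 h, so that its difference of -0.69 ± 0.41 rested on replicate 1.

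**Figure D2:**
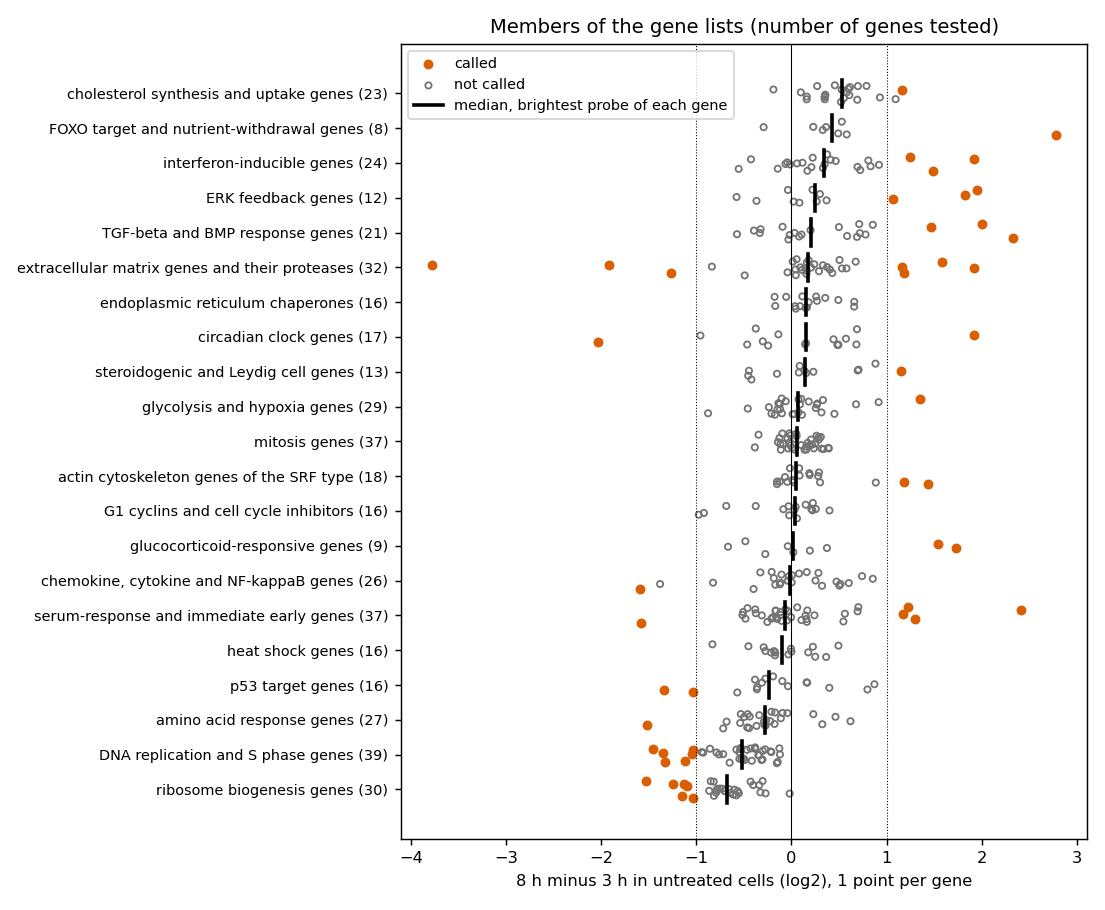
Difference between 8 h and 3 h in untreated cells (log2, horizontal axis) for every tested member of the 21 gene lists, 1 point per gene, with called genes filled and the list median, over the brightest probe of each gene, as a bar. The ribosome biogenesis and S phase lists lie wholly below 0, and 22 of 23 cholesterol genes lie above it.

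Cholesterol synthesis genes were higher at 8 h, most of them by less than 2-fold. Of 23 tested, 22 differences were positive and 19 had an adjusted p under 0.05 and were higher, against 22.3% of all genes, while 1 was called. The median was 0.53 log2 units. The called gene was Tm7sf2, a sterol C14 reductase, which measured 8.72, 8.69, 8.90 and 8.93 at 3 h and 9.96, 9.93, 10.01 and 10.01 at 8 h (log2 1.17 ± 0.11). Hmgcs1, a synthase of the pathway, gave 0.70 ± 0.07 (adjusted p = 0.0103). With channels centred on their medians the median of the list was 0.13 and 8 members were higher at an adjusted p under 0.05. Of 13 steroidogenic and Leydig cell genes tested, Gata4, a factor of gonadal somatic cells, was called on 1 of its 2 probes at 1.15 ± 0.13, and Star gave -0.45 ± 0.12 (adjusted p = 0.0632).

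Metabolic and hormone-responsive genes gave a few large rises. Pdk4, the kinase that shuts off pyruvate dehydrogenase in fasting, measured 8.10, 8.05, 8.36 and 8.51 at 3 h and 11.00, 10.95, 11.11 and 11.11 at 8 h, which was a rise of 6.89-fold (log2 2.78 ± 0.07). Pdk4 was the called member of 8 FOXO target genes tested, 7 of which were higher at an adjusted p under 0.05, against 22.3% of all genes, with a median of 0.43. With channels centred on their medians 1 was higher and 1 lower, and the median was 0.07. Cebpd, a C/EBP transcription factor, measured 12.65, 12.63, 12.87 and 12.98 at 3 h and 14.38, 14.47, 14.56 and 14.61 at 8 h (log2 1.73 ± 0.07). Angptl4, an inhibitor of lipoprotein lipase, rose by 1.54 ± 0.05. Cebpd and Angptl4 were the called members of 9 glucocorticoid-responsive genes tested, while Fkbp5 and Tsc22d3, defining targets of the receptor, gave -0.48 ± 0.04 and 0.19 ± 0.05. Of 29 glycolysis and hypoxia genes, Car9, a cell surface carbonic anhydrase, was called at 1.35 ± 0.09, Vegfa gave 0.07 ± 0.07, Slc2a1 -0.12 ± 0.06 and Egln3, a HIF target, -0.88. Of 27 amino acid response genes, 23 differences were negative and 13 were lower at an adjusted p under 0.05, against 20.8% of all genes. Slc7a3, a transporter of cationic amino acids, was called at -1.52 ± 0.10. Asns and Atf4 were not called, at -0.37 ± 0.08 and -0.27 ± 0.04.

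Among 17 circadian clock genes tested, 1 was called in each direction. Hlf, a PAR bZIP factor, measured 11.45, 11.40, 11.31 and 11.36 at 3 h and 9.40, 9.43, 9.28 and 9.29 at 8 h, which was a fall of 2.03 ± 0.05 log2 units. Per3, a period gene, was called at 1.92 ± 0.08, but at 3 h it measured 3.72, 3.51, 6.08 and 1.67 and was well above background on 2 of the 4 arrays. Without the Alexa 555 array of 3 h with 5 mM MAA its difference was 0.82, and without that with 1 mM 3.03, and both ended the call. Per1 and Per2 gave 0.44 ± 0.06 and 0.49 ± 0.06 (adjusted p = 0.0184 and 0.0147), though a second, dimmer probe of Per2 gave -0.46 (adjusted p = 0.0728). Cry1 gave -0.96 and Arntl, the partner of Clock, -0.30.

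Interferon-inducible genes included 3 called higher and none lower of 24 tested, with a median of 0.34, which was 0.14 with channels centred on their medians. Ifih1, the RNA sensor MDA5, gave 1.92 ± 0.24, Gbp2 1.49 ± 0.10 and Ifit1 1.25 ± 0.13, whereas the regulator Irf1 gave -0.43 ± 0.04. Ifih1, like Gata4, lost its call when the samples of 3 h and 8 h were fitted alone. Of 26 chemokine, cytokine and NF-kappaB genes 1 was called, Il1rl1, the IL-33 receptor, at -1.60 ± 0.11 with all 3 of its probes, and Cxcl1 and Ccl2 gave -0.19 ± 0.05 and 0.00 ± 0.11. Of 16 p53 target genes, Pmaip1 and Aen were called lower, Pmaip1, the pro-apoptotic protein Noxa, at -1.34 ± 0.11, while Mdm2 gave -0.31 ± 0.06 and Bax 0.17 ± 0.08. The call of Aen (-1.03) rested on leaving out 1 spot that the scanner software had marked as an outlier, since with such spots kept it was 0.27. None of 16 endoplasmic reticulum chaperones and none of 16 heat shock genes was called by limma. At an adjusted p under 0.05, 5 chaperones were higher and none lower, Hspa5 itself giving -0.06 ± 0.06, and 2 heat shock genes lay in each direction. At an unadjusted p under 0.05 the counts were 6 higher and 2 lower for chaperones and 5 and 3 for heat shock genes. With channels centred on their medians, 1 chaperone was higher and 3 lower at an adjusted p under 0.05, and no heat shock gene was higher and 8 were lower, so no direction can be given for either list.

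Of 18 actin cytoskeleton genes of the SRF type, 2 were called higher, Cnn1, calponin 1, at 1.19 ± 0.06 and Acta2, smooth muscle actin, at 1.44 ± 0.05. The 3 probes of Acta2 disagreed, since 2 gave 1.44 and 1.59 and the brightest gave -0.08. Acta2 and Cnn1 are also in the smooth muscle list, of which Myh11 was well above background on 2 of 4 arrays at each time. Actb gave -0.12 ± 0.10 (adjusted p = 0.376).

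Of the 14 genes with the largest fitted rises, 10 were not well above background on any array of 3 h. Their folds are lower bounds, and their order among themselves and against measured rises such as that of Pdk4 is not known. Ces1d, a carboxylesterase that hydrolyses triglycerides, measured 3.04, 3.53, 3.89 and 3.57 at 3 h, where it was not well above background, and 8.07, 8.01, 7.79 and 7.72 at 8 h, at least 16.8-fold higher. Agtr2, the type 2 angiotensin receptor, was at least 5.24-fold higher, Txlnb at least 5.60-fold, Ranbp3l at least 4.56-fold, Htatip2 at least 4.43-fold and Padi4, a peptidylarginine deiminase, at least 3.09-fold. Popdc3, Insc and Cck, the peptide hormone cholecystokinin, were at least 2.84-fold, 2.28-fold and 1.88-fold higher by the same measure. Each of the 9 genes just named was well above background on all 4 arrays of 8 h and none of 3 h, and Insc and Htatip2 each had a second probe that was not called. Insc lost its call without the Alexa 555 array of 8 h with 1 mM MAA or that of 3 h with 5 mM MAA.

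Tnmd, tenomodulin, Cys1, cystin, Aoc3, a vascular amine oxidase, and Itga11, a collagen-binding integrin, were measured at both times, Aoc3 and Itga11 on all 4 arrays of 3 h and Tnmd and Cys1 on 3 of them, and rose by 3.59 ± 0.17, 3.57 ± 0.13, 3.42 ± 0.35 and 3.29 ± 0.28 log2 units. Aoc3 measured 4.98, 5.05, 6.05 and 5.91 at 3 h and 9.08, 9.04, 8.79 and 8.73 at 8 h, which was a distance between the times that exceeded the one between the dyes. Itga11 measured 4.28, 4.54, 5.15 and 5.37 at 3 h and 8.19, 8.13, 8.13 and 8.03 at 8 h.

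Among the largest fitted falls was Cyp1a1, the cytochrome P450 that is the defining target of the aryl hydrocarbon receptor. Cyp1a1 measured 10.62, 10.68, 10.97 and 11.00 at 3 h and 7.70, 7.50, 7.80 and 7.70 at 8 h, which was a fall of 8.84-fold (log2 -3.14 ± 0.09, adjusted p = 0.00665). Tiparp, another target of that receptor, gave -0.51. Pglyrp3, a peptidoglycan recognition protein, measured 9.02, 9.09, 9.20 and 9.25 at 3 h and 6.29, 6.42, 6.27 and 6.28 at 8 h. Krtap1-5, a keratin-associated protein, gave -2.80 ± 0.19 and Cd53, a tetraspanin of leukocytes, -2.29 ± 0.05, with 7.68, 7.60, 7.74 and 7.66 at 3 h and 5.48, 5.35, 5.35 and 5.34 at 8 h. Slco1a6, an organic anion transporter, and Prl8a6, of the placental prolactin family, were not well above background at 8 h and were at least 3.36-fold and 4.14-fold lower. Speer4a, Speer4d, Gm9758 and 5031410I06Rik gave -2.72, -2.70, -2.59 and -2.28, but as near-identical copies of a family they are likely to share probe signal and cannot be counted apart. Ceacam14 (-2.69 ± 0.28) measured 4.57, 6.92, 4.58 and 6.61 at 3 h, the higher levels being those of the arrays with 5 mM MAA. Its call was lost without the Alexa 647 array of 3 h with 5 mM MAA (-2.10), the Alexa 555 array of 3 h with 5 mM (-2.19) or the Alexa 555 array of 8 h with 1 mM (-2.48).

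**Figure D3:**
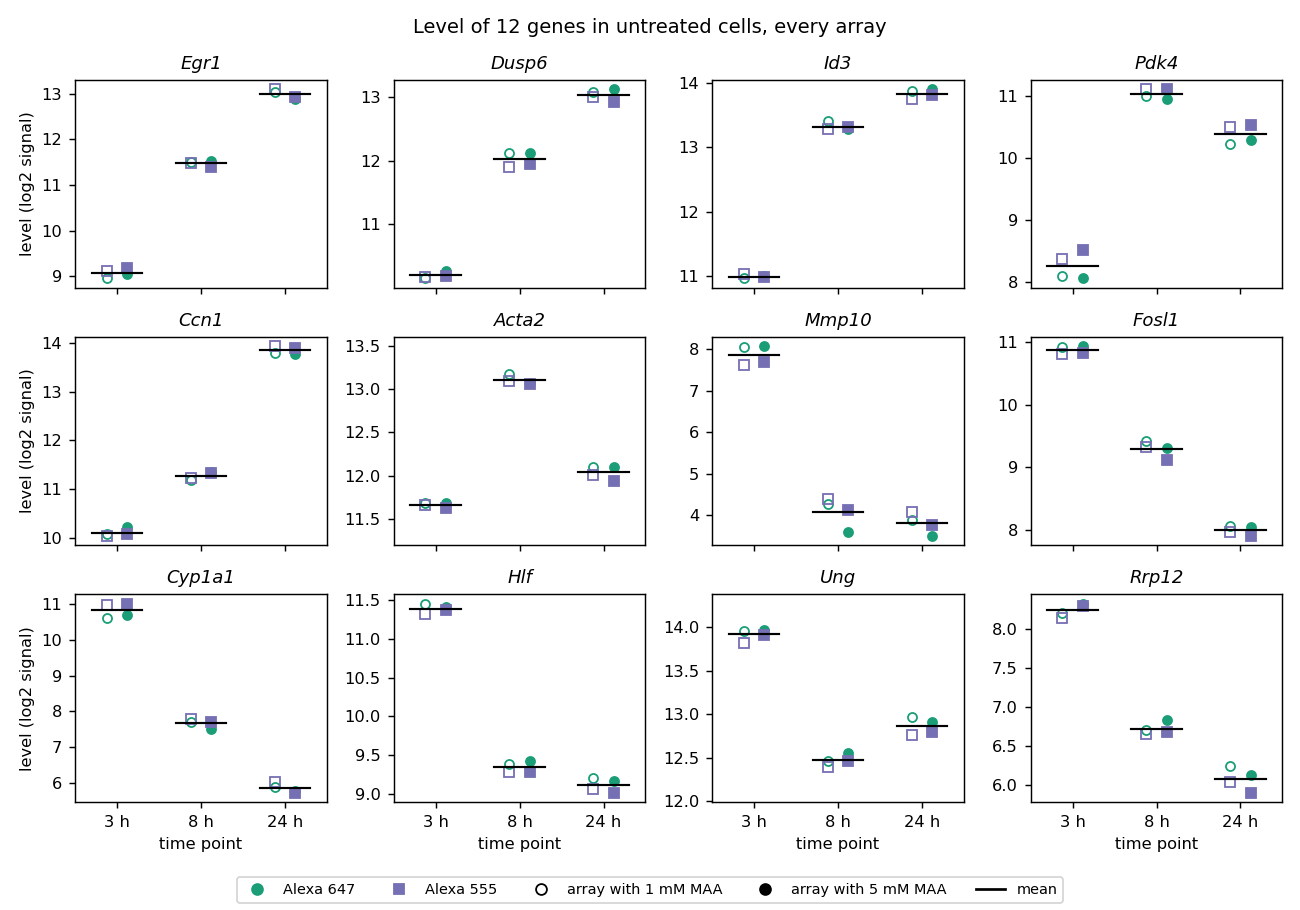
Level (log2 processed signal, quantile-normalised) of 12 genes in untreated cells on each of the 4 arrays at 3, 8 and 24 h, by dye (colour) and by the MAA dose on the same array (open or filled), with the mean as a bar. In all 12 panels the 4 points of 8 h lie apart from the 4 of 3 h. The 12 genes were picked among called ones, and 54.3% of all tested probes lie apart in this way. The Acta2 panel shows a called probe, while the brightest probe of that gene gave -0.08.

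The levels at 24 h show which differences persisted. The contrast of 24 h with 8 h shares the 8 h samples with the one above, and its values are given side by side only. Of the 74 named genes that were called, 54 differed between 24 h and 8 h at an adjusted p under 0.05. The share of all tested probes at that threshold was not counted for this contrast, so the number cannot be read as particular to these genes. Egr1, at 12.88 to 13.10, was a further 1.51 ± 0.07 log2 units higher at 24 h, Ccn1 2.57 and Dusp6 1.01, and Ces1d 3.60. Cyp1a1 was a further 1.82 log2 units lower, Fosl1 1.29 and Mmp3 1.11, while Mmp10 gave -0.27 (adjusted p = 0.385). Others turned back: Etv5 was 1.64 higher at 24 h than at 8 h, Mmp13 1.48, Pmaip1 1.57 and Cd53 1.25, and Acta2 and Gbp2 gave -1.06 and -1.17. Ccne2 (-0.01) and Angptl4 (-0.02) had about the same level at 24 h as at 8 h, with adjusted p of 0.814 and 0.764.

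Whether cells in 5 mM MAA changed in the same way over these hours was tested on the ratios within arrays, which also contain the control channel by which the genes were named. Of the 26493 probes, 3989 differed between the 2 time changes at an adjusted p under 0.05, 374 of the 1269 called probes among them, and for 1 mM MAA the counts were 160 and 37. Ribosome biogenesis genes had a median of -0.69 in 5 mM MAA against -0.68 in untreated cells, S phase genes -0.21 against -0.52 and cholesterol genes 0.06 against 0.53. The rises of Egr1, Id3, Id2, Spry4 and Dusp6 in untreated cells had values of 0.49, 0.27, -0.07, -0.33 and 0.53 in 5 mM MAA, and the differences between treated and untreated cells were -1.95, -1.99, -2.11, -2.34 and -1.31 log2 units (adjusted p = 0.0007, 0.000129, 0.00125, 0.00803 and 0.000196). Agtr2 gave 0.40 in 5 mM MAA, but its untreated rise is known only as a bound. Cyp1a1 gave -0.12 there and -1.99 in 1 mM MAA, with a difference of 3.09 for 5 mM, and Krtap1-5 and Hlf gave 0.06 and -0.58. By contrast, Pdk4 gave 2.93, Mmp10 -3.42, Mmp3 -2.12, Fosl1 -1.83 and Rrp12 -1.44 in 5 mM MAA, with adjusted p of 0.559, 0.318, 0.307, 0.442 and 0.786 for the difference, which does not show that they changed alike.

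**Figure D4:**
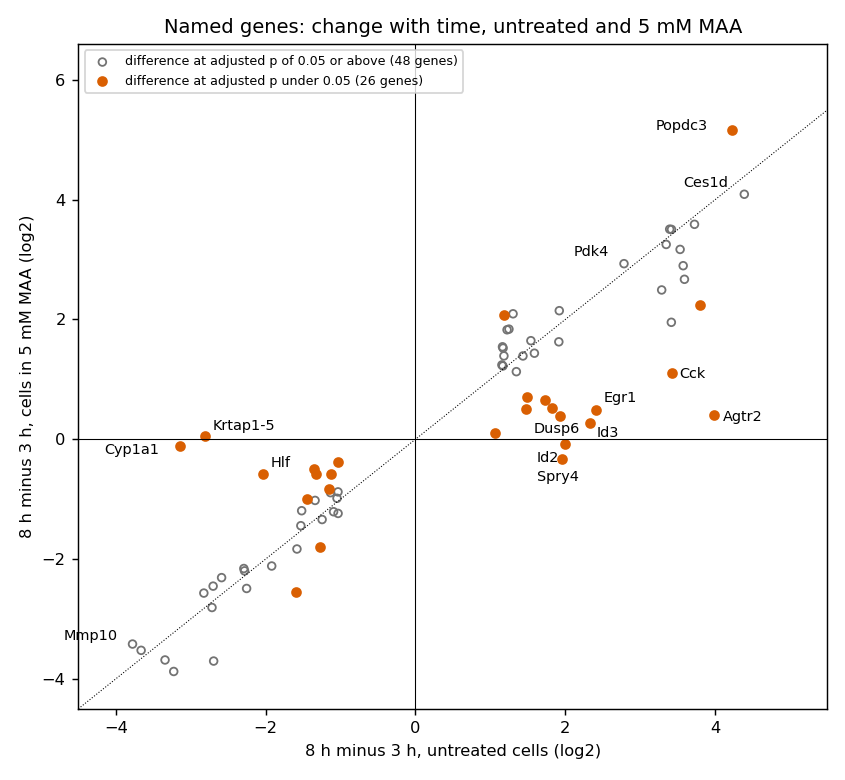
Difference between 8 h and 3 h (log2) in cells given 5 mM MAA (vertical axis) against that in untreated cells (horizontal axis) for the 74 named genes that were called, with the line of equal change dotted. The 26 filled genes differed between treated and untreated cells at an adjusted p under 0.05, among them Egr1, Id2, Id3, Spry4, Agtr2 and Cyp1a1, which lie near 0 on the vertical axis. Of all 26493 tested probes 3989 differed at that threshold, and of the 1269 called ones 374.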

How the data were processed

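RNA was amplified, coupled to Alexa 555 or Alexa 647 and hybridised to Agilent whole mouse genome arrays with dye swaps. The authors scanned and extracted them, and the deposited intensity columns are processed signals of Feature Extraction 9.5.3.1, background-subtracted and dye-normalised per the file headers, with other columns marking spots well above background, control spots and outliers. The deposited log10 ratios of MAA over control were not used. Control spots and outliers were left out. The log2 signals were quantile-normalised over all 24 channels and averaged per probe, and arrays of 1 mM and 5 mM were averaged per time and replicate. Probes well above background on at least 4 of 8 control channels were tested with limma 3.58.1 in R 4.3.3, with dye as a term and the 24 h samples in the fit. A call needed p under 0.005 and over 2-fold, and adjustment was by Benjamini-Hochberg over all tested probes. In this fit the dye term removes a constant difference between the 2 control samples of a time. Its p-values and SE therefore measure how that difference varied from time to time, with variances moderated by limma across probes. Spread between the arrays averaged into a sample does not enter them. It is not stated whether the 2 control samples of a time were separate pools. Where a group was below background on all its arrays, the fold is a lower bound against the lowest signal well above background. The number of arrays limits the precision. Gene names came from RefSeq (GRCm38.p6), by accession for 22072 of 22147 named probes. Named genes were the 14 largest rises and falls with no overlap within dyes, all called list members up to 8 a list, and the first 2 of each list, with 1 probe per gene. For calls this was the brightest called probe, or the brightest tested one where none was called. List medians and list counts at an adjusted p used the brightest tested probe whatever its call. The members and lists were chosen with earlier results of these data known. Some genes that the rule named are not reported here. Tested on simulated data of 26409 probes, the fit called 47, 50, 46 and 50 of 50 probes with a log2 change of 1.5, 2, 3 and 4, and 0.141% of unchanged ones. The simulation drew independent noise for each sample from the residuals of this fit. It held no slide effect and no shared control pool, so it gives no rate of false calls for these data.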

Additional observations from a re-analysis of the deposited data

Results flagged for a closer look

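The 74 named and called genes gave 148 groups of 4 arrays, of which Aen at 8 h lacked a value and was not examined. Among the groups of genes reported here, 9 held 1 array whose gap to its neighbour was large. That gap, as a share of the range of the group, exceeded Dixon's critical value for 4 values, which chance alone exceeds in about 1 group of 20. At 3 h these were Cck (0.868), Insc (0.988), Prl8a6 (0.877), Aen (0.986) and Nolc1 (0.887). At 8 h they were Insc (0.851), Mmp1a (0.928), Pglyrp3 (0.851) and Cd53 (0.915). Cck and Insc at 3 h and Mmp1a at 8 h were not well above background.

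For 26 of the 74 named and called genes, the change from 3 h to 8 h in 5 mM MAA differed from that in untreated cells at an adjusted p under 0.05 by limma. The same held for 3989 of all 26493 tested probes and for 374 of the 1269 called ones, so the count is not particular to the named genes. The genes were named by the untreated change, whose channels enter the difference. Agtr2, Cck and Popdc3 were not well above background at 3 h, so their values are fitted ones and not measured differences. Per3 was well above background on only 2 of 4 arrays at 3 h, so its value is uncertain as well. The differences use the arrays with 5 mM MAA only, whereas the untreated change of Per3 over all arrays was 1.92, and its change in 5 mM MAA 0.39. Among genes higher at 8 h in untreated cells, the change in 5 mM MAA minus that in untreated cells was, in log2 units, -3.80 for Agtr2, -2.45 for Per3, -2.34 for Spry4, -2.11 for Id2, -1.99 for Id3, -1.95 for Egr1 and -1.94 for Cck. It was -1.31 for Dusp6, -1.04 for Id1, -0.979 for Spry1, -0.943 for Cebpd and -0.689 for Gbp2, and it was above 0 for Popdc3 (1.03) and Cnn1 (0.789). Among genes lower at 8 h, it was 3.09 for Cyp1a1, 2.95 for Krtap1-5, 1.44 for Hlf, 0.753 for E2f2, 0.641 for Mcm10, 0.535 for Ccne2, 0.444 for Ung and 0.249 for Ddx21. Il1rl1 (-0.881) and Mmp13 (-0.418) fell by more in 5 mM MAA than in untreated cells.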

How the results depend on the processing

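All 1269 called probes that could be tested kept their direction under each other normalisation, filter and model, except that 1267 did with outlier spots kept, where Aen turned to 0.269. Centring on medians gave 685 probes called lower. Raw signals corrected by normexp (offset 50) and then normalised by loess and by quantiles gave 434 calls, 313 higher and 121 lower, and 23 of 74 named calls were then lost; which of these steps moved the counts was not tested. At an adjusted p under 0.05 alone there were 10275, 4835 higher and 5440 lower, and with 1.5-fold in place of 2-fold 3223, 1865 higher and 1358 lower. Without 1 array at a time there were 1231 to 1265 calls, 901 to 937 higher and 324 to 353 lower. With the 4 samples of 3 h and 8 h alone, 1090 probes were called but limma gave 0 with an adjusted p under 0.05, and 9796 at an unadjusted p under 0.05. With each array as a sample the counts were 1095 higher and 393 lower, and with slide as a fixed term besides 980 and 473. Averaged over the probes of a gene, 479 genes were called higher and 138 lower, and Acta2, Ccne1, Aen, Ncl and Gata4 lost their calls.

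The replicate number is also the dye, and was a term in the fit. Without the replicate block, 987 probes were called higher and 355 lower, and all 74 named calls held. Probes with an adjusted p under 0.05 by limma then went from 10275 to 8198. Replicate differences correlated at 0.0114 between 3 h and 8 h, 0.236 between 3 h and 24 h and 0.448 between 8 h and 24 h. The replicate numbers were not taken to mean that pools were paired, but the term does compare the times within a replicate number. Dim probes limit the comparison, since for 147 probes called higher and 5 called lower the lower time had no array well above background.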

Other observations

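Ddx4, an RNA helicase of germ cells, was well above background on all 8 arrays and measured 10.6 on average at 3 h and 9.16 at 8 h, a called fall of 1.40 log2 units. Sox9, a transcription factor of Sertoli cells and chondrocytes, was called higher at 1.10. Of the same Sertoli cell list, Wt1 gave 0.24 and Rhox5 -0.24 (adjusted p by limma = 0.0367 and 0.0342). Dmrt1 and Cldn11 were not well above background on any of the 8 arrays.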
